A study of Mus musculus with 22 samples.

Results

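Of the 96049 ATAC-seq peaks measured in mouse male germ cells, 93867 lay on chromosomes 1 to 19, and 36 of these were open in control spermatogonia and nearly closed in later germ cells. ATAC-seq uses Tn5 transposase to place sequencing adapters in accessible DNA, so the read count in a peak follows how open the site is. Members were chosen on counts scaled for depth (CPM: the count in a peak divided by all counts in peaks of that library, on the usual per-million scale). A site was kept when the mean of 5 control KIT-negative libraries and the mean of 3 control KIT-positive libraries were each at least 20 CPM, the ratio of these means was between 0.5 and 2, and the mean of 5 later germ cell libraries was under 2 CPM. The first 3 criteria alone left 9001 sites, so the 36 were 0.400% of the sites with these spermatogonial levels. The values of the control and later libraries chose the members and are given here as a description, with no test. The 9 TERT-deleted libraries played no part in the choice.

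The study asked how acute loss of TERT, the protein subunit of telomerase, affects chromatin in the stem and progenitor cells of the testis. All libraries came from C57BL/6 mice. They were 8 to 12 weeks old. The protocol gives tamoxifen and FACS on day 7 for every library, while a time point entry is present for spermatogonia alone. MCAM, a surface adhesion molecule, and KIT, the receptor that marks differentiating spermatogonia, defined MCAM-high KIT-negative, MCAM-medium KIT-negative and MCAM-medium KIT-positive cells. Sample titles separate TERT-heterozygous (control; 3, 2 and 3 libraries in these populations) from TERT-deleted mice (3 libraries in each). The genotype entry, TertCreER/+:Rosalsl-Tdtomato/+, is the same for both, so both groups carry the CreER allele at Tert and the Cre-dependent Tdtomato reporter per that entry, and the deletion rests on the titles. The 5 later germ cell libraries are labelled TertTdtomato/+, an allele that no spermatogonial library carries, so cell stage and reporter allele cannot be told apart in any comparison with them. They are spermatocytes or round spermatids. Title and library name disagree on which for 4 of the 5, and they were kept as 1 group. No label ties replicates to different animals, so p-values measure the spread between libraries, which may be technical. The names of all 5 later libraries share the prefix TERT-TdTom-Het1, so the SDs over them may describe 1 source.

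Spermatogonia are the mitotic cells at the base of the seminiferous tubule. The undifferentiated ones sustain the lineage, their differentiating KIT-positive progeny enter meiosis as spermatocytes, and these give round spermatids. Promoters of housekeeping genes tend to stay accessible across cell types, whereas accessible sites away from promoters are often enhancers used in 1 lineage or stage. Loss of accessibility during differentiation is a common way in which such distal elements are retired.

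Sequence was at hand for promoter windows, from 250 bases before to 50 after an annotated start (RefSeq, GRCm38.p6). Of the 22 genes with a member at an end or in the body, 20 had such a window. Of the members, 1 overlapped a window, that of Pdx1, so this is the 1 member whose own bases are shown. It is set beside the 2 host promoters that differed most in later germ cells: that of Fam184a, whose promoter peak had the highest later mean among hosts, and that of Rarb, which was open in KIT-negative controls and had the lowest later mean among host promoters of at least 20 CPM in KIT-negative controls that are not members. Capitals mark matches, on either strand, to any of 12 short motifs searched.
Pdx1: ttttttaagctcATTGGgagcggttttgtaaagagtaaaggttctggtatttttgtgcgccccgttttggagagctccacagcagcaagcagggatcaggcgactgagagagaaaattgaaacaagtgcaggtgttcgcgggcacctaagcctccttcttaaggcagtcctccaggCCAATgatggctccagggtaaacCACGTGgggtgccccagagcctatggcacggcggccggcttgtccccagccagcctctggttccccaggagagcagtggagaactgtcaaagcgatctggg
Fam184a: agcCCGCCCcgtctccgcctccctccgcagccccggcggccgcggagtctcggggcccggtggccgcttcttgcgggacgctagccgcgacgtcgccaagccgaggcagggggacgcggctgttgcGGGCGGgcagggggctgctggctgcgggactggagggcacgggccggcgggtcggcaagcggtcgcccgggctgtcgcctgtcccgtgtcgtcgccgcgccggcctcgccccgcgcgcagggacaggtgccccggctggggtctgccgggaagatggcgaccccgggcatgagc
Rarb: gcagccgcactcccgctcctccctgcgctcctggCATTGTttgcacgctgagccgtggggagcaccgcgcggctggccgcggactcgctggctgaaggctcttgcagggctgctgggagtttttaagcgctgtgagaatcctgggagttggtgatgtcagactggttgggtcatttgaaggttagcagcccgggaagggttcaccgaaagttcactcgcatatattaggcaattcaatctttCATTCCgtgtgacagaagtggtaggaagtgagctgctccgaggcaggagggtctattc

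The Pdx1 window is chr5:147269847-147270146, plus strand. The Fam184a window is chr10:53750860-53751159, minus strand. The Rarb window is chr14:16575427-16575726, minus strand. In the Pdx1 window the capitals are 2 matches to CCAAT and 1 to the E box CACGTG, in that of Fam184a 2 matches to the GC box GGGCGG, and in that of Rarb 1 match each to a SOX core, ACAANG, and a TEAD core, GGAATG. Among 32851 RefSeq windows of 300 bases, 37.4% held CCAAT, 35.7% the GC box, 7.15% the E box, 41.2% the SOX core and 14.7% the TEAD core. The other motifs searched had no match in these 3 windows. They were the DMRT core ACANTGT, held by 7.54% of all windows, the ETS core CCGGAAG, held by 8.86%, and the forkhead core TGTTTAC, held by 3.65%. The cyclic AMP element core TGACGT was in 7.51% of windows, the TCF and LEF core CTTTGAT in 3.73%, the AP1 core TGANTCA in 7.81% and the GATA-factor core AGATAA in 11.2%. Each motif was counted on its own, whatever other match it overlapped. Matches are letters only and show no binding. The windows differed in base composition. GC content was 79.3% with 45 CpG dinucleotides for Fam184a, 57.7% with 17 for Rarb and 55.3% with 11 for Pdx1, against a median of 52.7% and 7 CpG over all windows. The window of the promoter that stayed open in later cells was thus the richest in CpG of the 3. No link is read from this, as only 3 windows are shown.

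At a limit of 1 kb, the 36 members lay almost entirely away from gene ends (the plot of position by later level). Taking either annotated end of a gene plus 1 kb as a gene end, 2 members touched one (5.56%), 20 sat elsewhere within a gene (55.6%) and 14 lay between genes (38.9%). Among the 6451 sites with the same spermatogonial levels that kept at least 20 CPM in later cells, the shares were 87.3% at an end, 10.6% elsewhere within a gene and 2.11% between genes. Sites of intermediate later level lay between: 64.2% of the 2319 with a later mean of 4 to 20 CPM and 18.97% of the 195 with 2 to 4 CPM were at a gene end. Over all 93867 autosomal peaks, 24.5% were at a gene end. At 1 kb the members thus had a lower share than open sites that stayed open and also than peaks at large. With 5 kb, 16 members (44.4%) were at an end, against 93.8% of the sites that stayed open. The share of all autosomal peaks was not computed at 5 kb.

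**Figure D1:**
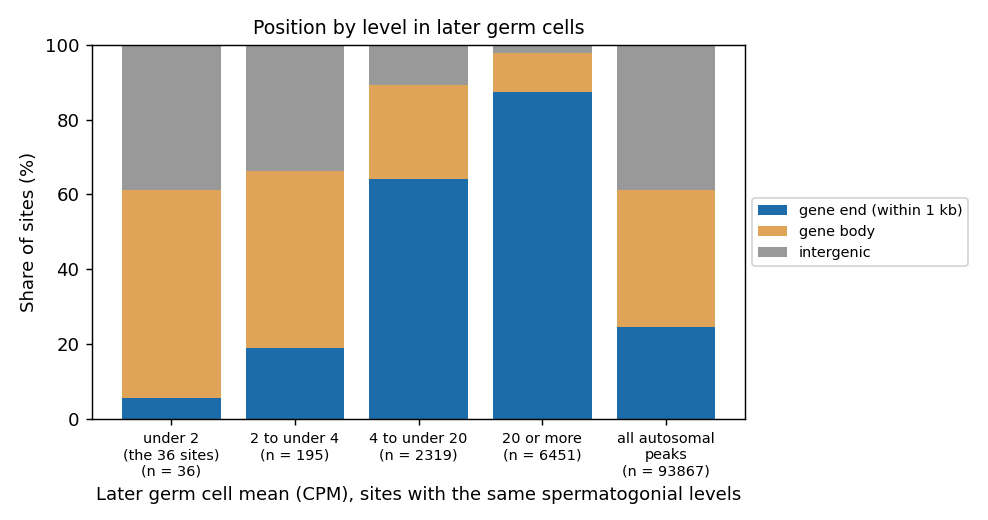
Share of sites (y axis, %) at a gene end, elsewhere within a gene or between genes, for sites with the same levels in control spermatogonia divided by their mean CPM in later germ cells (x axis, with the number of sites), beside all autosomal peaks. The share at a gene end is 5.56% in the 36 sites and 87.3% in those of at least 20 CPM.

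Members were far from starts compared with sites that stayed open, though not compared with peaks at large. The median distance from a member to the nearest annotated promoter start was 9116.5 bp, against 19411 bp for all autosomal peaks and 0 for the sites that stayed open, most of which sit on a start. Of the members, 17 were over 10 kb and 1 over 100 kb from a start. A promoter window was overlapped by 2.78% of members, 79.6% of the sites that stayed open and 17.6% of all autosomal peaks. Members were 421 to 1089 bp wide (median 584.5), narrower than the sites that stayed open (median 1011) and wider than autosomal peaks as a whole (416). CPM values are not divided by peak width, so they are compared here within a site across libraries and not as densities between sites.

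The members were scattered. They fell on 13 of the 19 autosomes, and 4 had another member within 1 Mb: those in Prkcz and near Gabrd, 101802 bp apart on chromosome 4, and those in Mthfd1l and Esr1, 741400 bp apart on chromosome 10. Within 50 kb, the 36 sites had 249 other peaks. Of these, 40 had a mean of at least 20 CPM in both KIT-negative and KIT-positive controls, whatever the ratio. Of the 40, 22 kept at least 20 CPM in later cells. For 14 members, such a site that stayed open lay within 50 kb. Low later signal at these members therefore stood beside nearby sites that were open in the same libraries.

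Levels in control spermatogonia were modest and close to the threshold. KIT-negative control means were 20.2 to 49.8 CPM (median 25.2), with 27 of 36 under 30 CPM, and KIT-positive means were 20.3 to 52.2 CPM (median 24.7). Later means were 0.599 to 1.99 CPM (median 1.55). In later libraries the 36 sites together held 554 reads, 6 to 23 reads per site over the 5 libraries, and 23 of the 180 values were 0. The ratio of spermatogonial to later signal had a median of 18.1 and ran from 11.1 (Pdx1) to 48.7 (near U2af1). At 3 counts, the limit a count of 0 allows, a later library could hold 0.893 to 2.09 CPM, so differences among members within the later cells were mostly not detectable at this depth.

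The TERT-deleted libraries repeat the comparison in libraries that the choice did not use. In all 36 members the lowest of the 9 deleted libraries was above the highest of the 5 later libraries. The background is 29.5% of the 9001 sites with the same spermatogonial levels and 7.70% of all autosomal peaks. The later libraries were part of the rule, so nothing is read from this count. The same held for the 8 control libraries, where the background is 32.4% and 8.62%. Mean levels over the deleted libraries were 15.1 to 52.3 CPM (median 24.3). With the thresholds applied to deleted libraries in place of controls, 21 of the 36 met the spermatogonial levels: 25 had a KIT-negative mean of at least 20 CPM, 30 a KIT-positive mean of at least 20 CPM and 34 a ratio in range. Since the choice required control means of at least 20 CPM, it favoured high control values, and members may be lower in libraries not used for it.

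**Figure D2:**
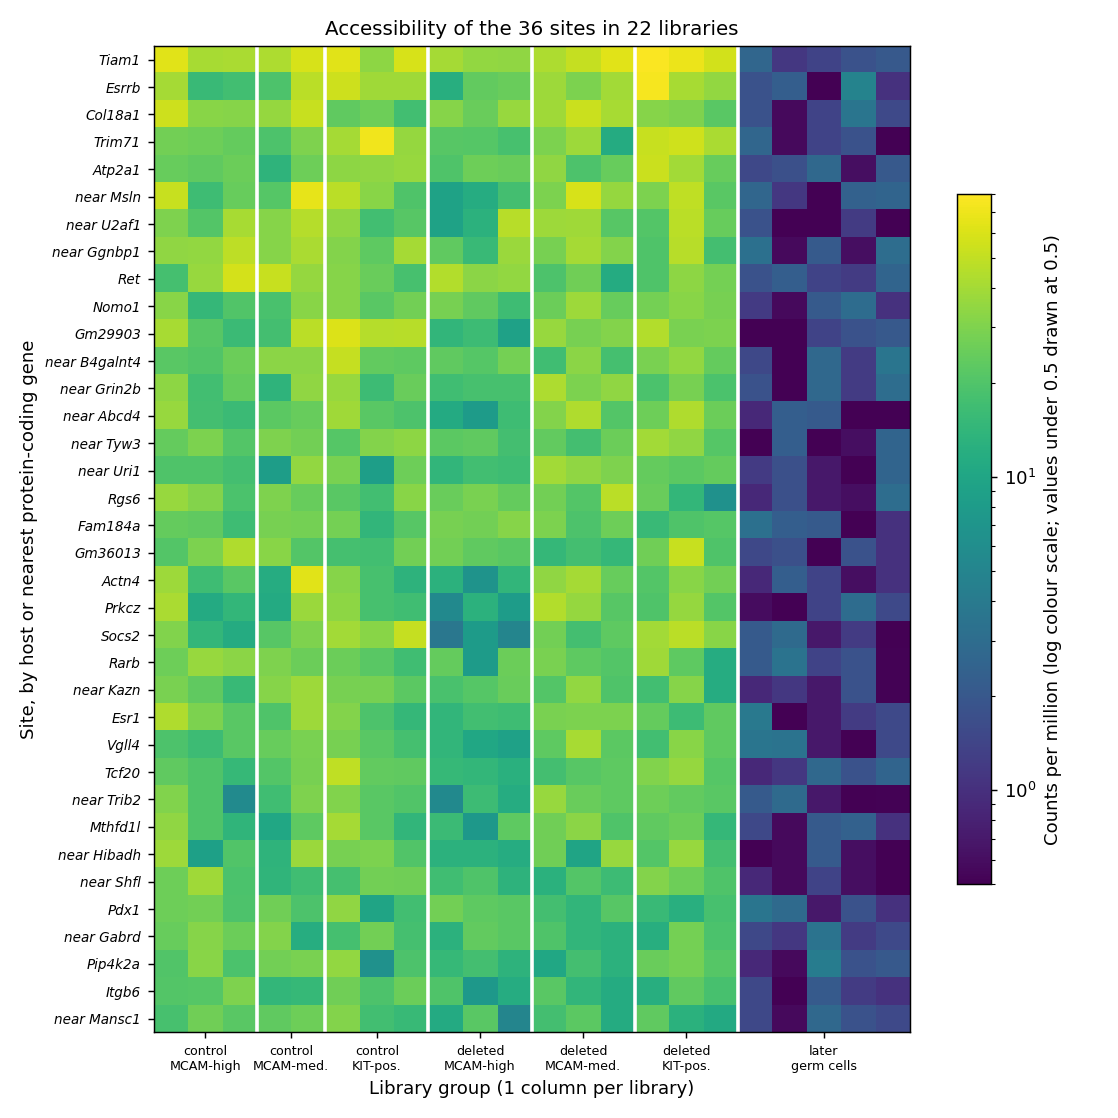
CPM (colour, log scale, values under 0.5 drawn at 0.5) at the 36 sites (rows, named by host gene, or by nearest protein-coding gene after the word near) in 22 libraries (columns, in groups divided by white lines), sorted by the mean of the deleted libraries. The 17 spermatogonial libraries are above all 5 later libraries at each site.

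The most open member was in Tiam1, which encodes an exchange factor that activates the small GTPase Rac1 (chr16:90125446-90126188). Control readings were 64.0, 41.3 and 42.3 CPM in the MCAM-high libraries, 42.7 and 58.8 CPM in the MCAM-medium pair and 64.1, 33.6 and 58.9 CPM in the KIT-positive ones. In deleted cells it had 40.1, 35.5 and 34.2 CPM, then 42.5, 51.7 and 63.8 CPM, and 77.0, 68.8 and 56.8 CPM in the same order of populations. Later libraries had 1.15 to 2.68 CPM. In deleted cells the MCAM-high libraries were the lowest and did not overlap either other population. Another site in the body of Tiam1 behaved otherwise in later cells, at 149 CPM in KIT-negative controls, 132 CPM in KIT-positive controls and 78.4 ± 6.24 CPM (SD, n = 5) in later cells. That site (chr16:90143403-90144575) lies close to the annotated upstream end of the gene at 90145600, just outside the 1 kb limit for gene ends.

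Esrrb encodes an orphan nuclear receptor of the pluripotency network in embryonic stem cells, and its member (chr12:86429177-86429783) lay 7533 bp from the nearest annotated Esrrb start. Control readings were 40.3, 15.7 and 17.1 CPM in the MCAM-high libraries, 19.5 and 47.7 CPM in the MCAM-medium pair and 54.4, 39.0 and 39.1 CPM in the KIT-positive ones. Deleted values were 12.1, 23.9 and 24.99 CPM, then 38.0, 29.5 and 39.3 CPM, then 74.4, 41.0 and 34.9 CPM. The control KIT-negative libraries split widely inside each gate, while the deleted MCAM-high libraries were all lower than the deleted MCAM-medium ones. The later mean was 1.99 ± 1.81 CPM (SD, n = 5), just inside the threshold, with 4.82 CPM in the highest library. A different peak in the body of Esrrb ran the other way, at 16.2 CPM in KIT-negative controls, 19.1 CPM in KIT-positive controls and 51.1 ± 8.49 CPM in later cells.

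Trim71 encodes an RNA-binding protein targeted by let-7 microRNAs, first studied for its part in developmental timing. The member in its body (chr9:114556506-114557143) had 27.1, 26.0 and 24.0 CPM in the control MCAM-high libraries, 19.5 and 29.7 CPM in the MCAM-medium pair and 40.3, 71.6 and 35.5 CPM in the KIT-positive ones. Deleted libraries had 21.5, 21.1 and 18.3 CPM, 29.6, 38.4 and 11.5 CPM, and 51.9, 55.5 and 42.2 CPM. KIT-positive libraries were above KIT-negative ones in both genotypes. The later mean was 1.29 ± 1.05 CPM.

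Socs2 encodes a suppressor of cytokine signalling. The member in its body (chr10:95404731-95405236) had 30.9, 14.4 and 11.4 CPM in the control MCAM-high libraries, 21.4 and 29.7 CPM in the MCAM-medium pair and 39.5, 32.5 and 50.7 CPM in the KIT-positive ones. Deleted libraries had 3.73, 8.18 and 5.00 CPM for the MCAM-high gate, 27.1, 17.7 and 22.9 CPM for the MCAM-medium gate and 39.8, 47.1 and 32.8 CPM for the KIT-positive gate. The 3 deleted populations were fully separated in that order. Over the 17 spermatogonial libraries its coefficient of variation was 55.8%, the highest of the members, which ran from 22.3% (Fam184a) with a median of 36.8%.

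Col18a1, which encodes collagen XVIII of basement membranes, ran in the other direction between populations. Its member (chr10:77101421-77101982) had 54.6, 32.3 and 32.0 CPM in the control MCAM-high libraries, 35.8 and 52.6 CPM in the MCAM-medium pair and 23.1, 26.0 and 17.3 CPM in the KIT-positive ones. Deleted values were 31.7, 25.2 and 36.7 CPM, 38.6, 53.2 and 40.9 CPM, and 32.0, 29.95 and 21.8 CPM. Control KIT-positive libraries were all below the KIT-negative ones. In deleted cells the MCAM-medium libraries were above all others, and the MCAM-high and KIT-positive libraries overlapped.

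Ret is the receptor tyrosine kinase through which GDNF supports self-renewal of undifferentiated spermatogonia. The member in its body (chr6:118189861-118190531) had 18.1, 36.4 and 57.7 CPM in the control MCAM-high libraries, 52.0 and 35.9 CPM in the MCAM-medium pair and 32.1, 24.9 and 18.3 CPM in the KIT-positive ones. Deleted values were 44.8, 33.4 and 35.0 CPM, 19.3, 26.6 and 11.5 CPM, and 19.9, 33.8 and 27.7 CPM. Deleted MCAM-high libraries were thus all above MCAM-medium ones, opposite to Socs2 and Tiam1. The Ret gene-end peak was 47.1 CPM in KIT-negative controls, 32.2 CPM in KIT-positive controls and 11.2 ± 2.31 CPM (SD, n = 5) in later cells.

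Rarb encodes a retinoic acid receptor, retinoic acid being the signal that drives spermatogonia into differentiation. Its member (chr14:16597872-16598598) had 26.0, 36.4 and 33.1 CPM in the control MCAM-high libraries, 30.2 and 25.4 CPM in the MCAM-medium pair and 25.4, 21.7 and 16.7 CPM in the KIT-positive ones. Deleted values were 24.3, 8.18 and 25.8 CPM, 29.0, 22.9 and 20.5 CPM, and 38.9, 22.7 and 11.6 CPM, and these groups overlapped. The Rarb promoter shown above was lower in KIT-positive than in KIT-negative controls, 16.2 ± 4.59 CPM (n = 3) against 37.9 ± 5.05 CPM (SD, n = 5), and was 3.71 ± 1.82 CPM (n = 5) in later cells.

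**Figure D3:**
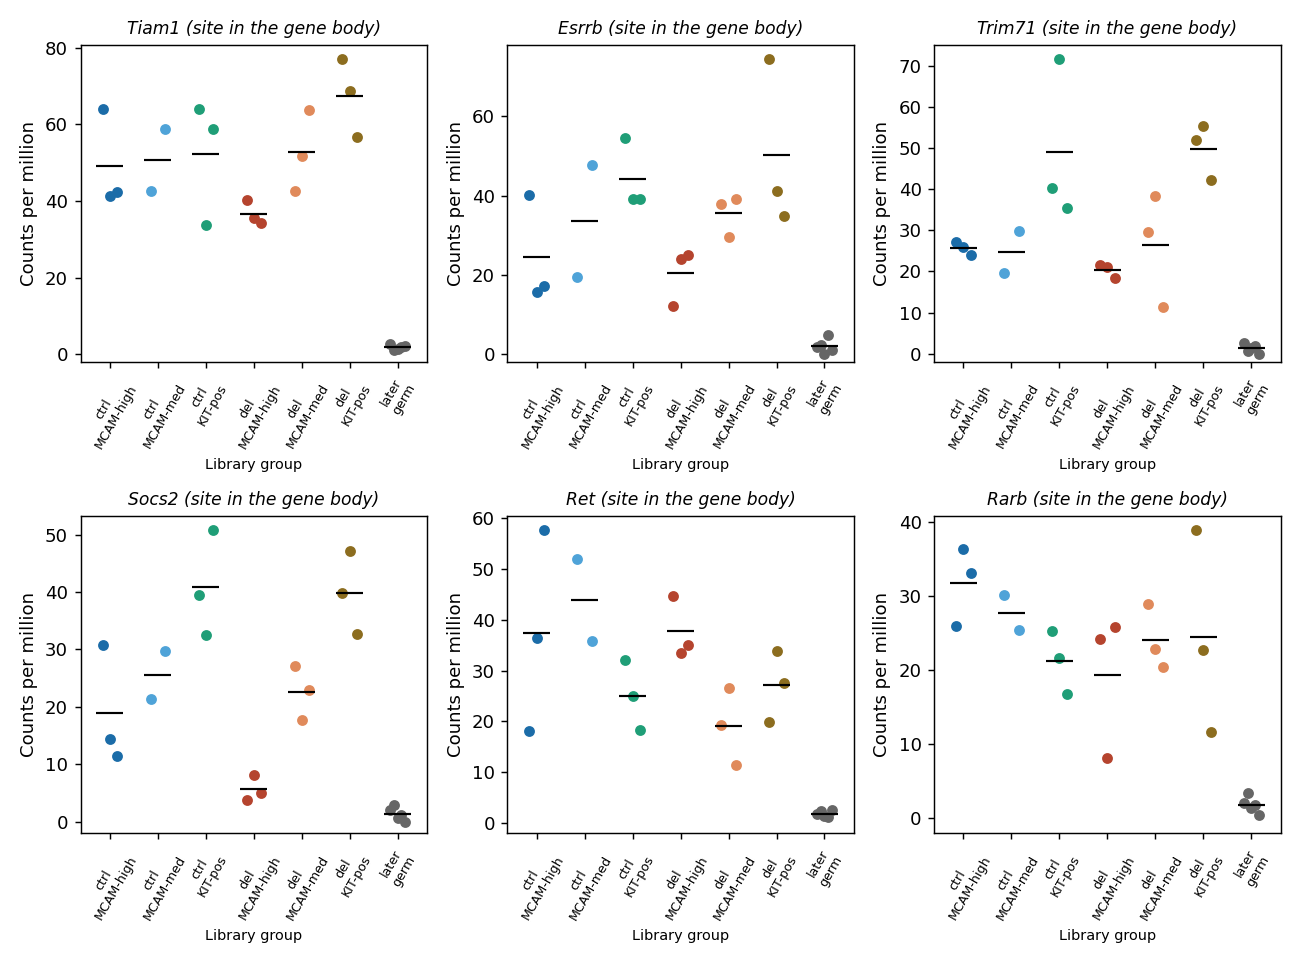
CPM (y axis) at 6 members in each library (points) by group (x axis; ctrl, control; del, TERT-deleted), with the group mean as a bar. At the Socs2 member the deleted MCAM-high libraries lie at 3.73 to 8.18 CPM, below every other deleted library.

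The 2 members at a gene end were in Pdx1 and in Gm36013. Pdx1 encodes a homeodomain factor of pancreas development, and its member (chr5:147269846-147270476) covered the whole promoter window printed above. It had 26.0, 27.4 and 19.4 CPM in the control MCAM-high libraries, 26.5 and 19.2 CPM in the MCAM-medium pair and 34.3, 9.76 and 17.3 CPM in the KIT-positive ones. Deleted readings were 27.1, 22.5 and 21.7 CPM for MCAM-high, 17.4, 14.0 and 21.3 CPM for MCAM-medium and 15.6, 12.2 and 18.2 CPM for KIT-positive cells, and later libraries had 0.698 to 3.57 CPM. The control groups overlapped, while the deleted MCAM-high libraries were above all other deleted ones, the lowest of them by a small margin. Gm36013 is a long noncoding RNA gene, and its member (chr4:120199764-120200332) lay 7287 bp from the nearest start and at the other end of the gene. It had 14.7 to 52.7 CPM in deleted libraries and a later mean of 1.21 CPM.

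Other members in gene bodies were in Atp2a1 (chr7:126453681-126454202), a muscle calcium pump gene, and in Esr1, the estrogen receptor alpha gene (chr10:4716828-4717278). Further ones were in Prkcz, an atypical protein kinase C gene, Vgll4, a cofactor of TEAD factors, Actn4, an actin-crosslinking protein, Itgb6, an integrin subunit, and Tcf20, a transcriptional co-regulator. The rest were in Fam184a, Mthfd1l, Rgs6, Nomo1, Pip4k2a and the noncoding Gm29903. Intergenic members are named here by the nearest protein-coding gene. They were those near Msln (5335 bp from the gene), U2af1 (3243 bp), Ggnbp1 (11232 bp), Grin2b, Abcd4, B4galnt4, Uri1, Shfl, Gabrd and Mansc1. Others lay far from the gene that names them: Kazn (329535 bp), Trib2 (159735 bp), Tyw3 (120878 bp) and Hibadh (80029 bp). At each of these the annotated start of another gene was nearer, at 26250 to 111475 bp. The site near U2af1, a gene of splice site recognition (chr17:31662391-31663039), had the lowest later mean, 0.599 CPM from 8 reads, against 9.33 to 47.7 CPM in deleted libraries. The site near Msln (chr17:25759713-25760657) varied widely, from 9.33 to 65.6 CPM over spermatogonial libraries. The site near Ggnbp1 (chr17:27006219-27006803) had 15.7 to 48.0 CPM.

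The threshold on later cells cut through a continuum. The 2 members nearest inside it were those of Pdx1 and Esrrb, both with a later mean of 1.99 CPM. The 2 sites nearest outside were an intergenic site 39895 bp from Rwdd4a (chr8:47592732-47593390) at 2.02 CPM and a site in the body of Dock9 (chr14:121613500-121614021) at 2.04 CPM.

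Promoters of the host genes did not follow the members as a group. Of the 22 host genes, 15 had a promoter peak other than the member. The most open of these had at least 20 CPM in later cells for 6 hosts, 2 to 20 CPM for 8 and under 2 CPM for 1, Esr1, whose promoter peak was low in control spermatogonia too (3.17 CPM in KIT-negative cells). The Fam184a promoter had 50.4 ± 7.62 CPM in KIT-negative (SD, n = 5), 49.5 ± 4.36 CPM in KIT-positive (n = 3) and 57.8 ± 8.10 CPM in later cells (n = 5). Those of Vgll4 (40.3 ± 11.4 CPM in later cells), Prkcz (41.7 ± 16.2), Actn4 (36.5 ± 8.92), Pip4k2a (29.3 ± 6.35) and Rgs6 (20.2 ± 6.76) were also open there. For Tiam1 the promoter peak counted had 2.99 CPM in later cells. The site near the Tiam1 gene end described above overlaps no promoter window of the gene and kept 78.4 CPM. Over the whole bodies and ends of the 22 genes there were 139 other peaks. Of these, 14 had the spermatogonial levels of the members, 6 of the 14 kept at least 20 CPM in later cells and 2 were under 4 CPM.

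Among lists of germ cell and other genes, members fell in Ret, Rarb, Esrrb and Itgb6. Of 15 lists with 329 genes, 328 of which matched the gene table, undifferentiated spermatogonia held 1 of the members' genes out of 40 (Ret), retinoic acid 1 of 24 (Rarb), GDNF, FGF and MAPK signalling 1 of 30 (Ret), pluripotency and germline factors 1 of 22 (Esrrb), and adhesion and integrins 1 of 32 (Itgb6). The lists of differentiating spermatogonia, WNT, SOX factors, chromatin regulators, meiosis, spermiogenesis, and Sertoli, Leydig, peritubular or endothelial and immune markers held none. At a later mean of 2 to 4 CPM the same lists held 1 site each in Sall4 and Sos1. Of the 19 sites with the members' spermatogonial levels in undifferentiated genes, 8 kept at least 20 CPM in later cells, and of 26 in GDNF, FGF and MAPK genes, 15 did. In the order above, the 1 member of each list stood among 19, 6, 26, 12 and 23 such sites. The lists without a member held 1 to 24 such sites each. Members were 0.400% of all 9001 such sites. Counts of 1 per list are too small to read, and no test was made.

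The label was checked on the gene-end peaks of marker lists. Summed signal over the undifferentiated list was 1108 to 1318 CPM in spermatogonia and 716 to 802 CPM in later libraries, and over the spermiogenesis list 461 to 729 against 999 to 1145 CPM. The spermatogonial and later groups thus separated on these lists as labelled. They overlapped on the other germ cell lists, differentiating spermatogonia (535 to 859 against 540 to 616 CPM) and meiosis (888 to 1340 against 1256 to 1452 CPM). Signal over somatic lists was also higher in spermatogonia: Sertoli 158 to 250 against 91.7 to 105 CPM (10 of 15 genes with a gene-end peak), and peritubular or endothelial 141 to 267 against 83.1 to 103 CPM (10 of 15). Leydig gave 74.8 to 117 against 60.9 to 68.4 CPM (3 of 10) and immune 67.1 to 133 against 44.6 to 55.5 CPM (9 of 15). Among these markers the mean was under 2 CPM in spermatogonia for Cd74 alone. The part of such cells in the members' signal was not tested, and in sorted bulk samples fewer cells with an open site and less opening per cell cannot be told apart. Total counts in peaks were 922085 to 3358377 per library.

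Before the comparisons among populations, the control libraries need mention. Across the tested peaks, control MCAM-high library 1 deviated from its group in the same direction as MCAM-medium library 2 (correlation across peaks 0.42), and MCAM-high libraries 2 and 3 in the direction of MCAM-medium library 1 (0.26 and 0.22). With 2 MCAM-medium libraries, their deviations mirror each other. Deviations of the MCAM-high libraries also cancel at each peak, so the values of 0.26 and 0.22 are not independent of the 0.42. At the members this appeared as medians of 29.5 CPM in MCAM-high library 1 and 29.7 CPM in MCAM-medium library 2, against 21.1 to 22.4 CPM in the other 3. The cause was not tested. Labels were used as given, and affected results were also run without MCAM-high library 1 and MCAM-medium library 1, an alternative chosen after seeing the data.

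Between populations of TERT-deleted cells, the members were more open in KIT-positive than in KIT-negative cells at 10 sites and less open at none (edgeR quasi-likelihood test, Benjamini-Hochberg adjusted p under 0.05 over 57289 peaks). That is 27.8% of the 36, all of which entered the test, against 14.8% of all peaks called in either direction, 10.4% higher and 4.40% lower. Members were chosen to be within a factor of 2 between these populations in controls. The median log2 fold change was 0.56 at the members and -0.06 over all peaks, and 32 of 36 were above 0. This was not particular to sites that close later. The sites that stayed open had a median of 0.44 with 32.6% called higher, and those with a later mean of 2 to 4 CPM had 0.39 and 26.2%. Sites with a later mean of 4 to 20 CPM did not share it, with a median of 0.06 and 9.40% called higher.

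The member in Socs2 rose most, by 1.98 ± 0.30 in log2 units (SE; adjusted p = 5.07e-06 by edgeR). The members in Trim71 (1.28 ± 0.26, edgeR adjusted p = 4.33e-04), Esrrb (1.06 ± 0.29, 0.00755), Tiam1 (0.81 ± 0.22, 0.00873) and Tcf20 (0.98 ± 0.28, 0.0137) followed. Those in Gm36013, Atp2a1, Gm29903 and Pip4k2a and near Abcd4 rose by 0.85 to 0.97. The member in Rgs6 had the lowest value, -0.74 ± 0.34, which did not pass (edgeR adjusted p = 0.139). At the members in Socs2, Trim71 and Pip4k2a the lowest KIT-positive library was above the highest KIT-negative one, 3 of 36 (8.33%) against 7.74% of all peaks tested and 21.8% of the sites that stayed open, so the members' share was near the background. Scaling to total counts in place of TMM moved the median of all peaks from -0.06 to -0.27 and that of the members from 0.56 to 0.35. It left 5 calls, Socs2, Trim71, Esrrb and Tiam1 higher and Rgs6 lower (-0.96), which is 13.9% of the 36 and the same share as the 13.9% of all peaks called under that scaling. Without deleted KIT-positive library 1, 5 were called (4 higher, and Rgs6 lower at -1.24) against 8.75% of all peaks, and without library 2, 5 were called, all higher, against 10.4%.

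**Figure D4:**
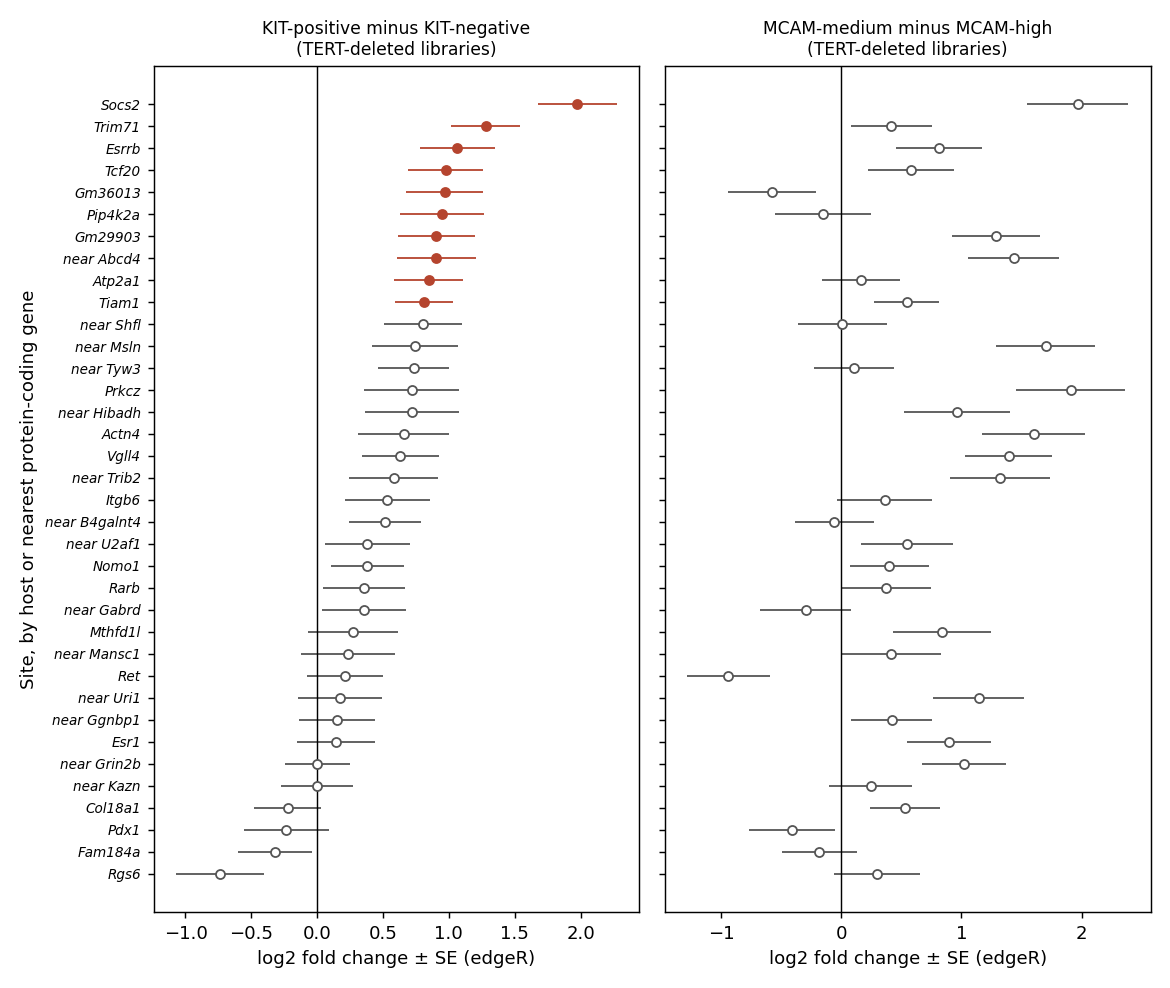
Log2 fold change ± SE (x axis, edgeR) at the 36 members (rows) in TERT-deleted cells, KIT-positive minus KIT-negative on the left and MCAM-medium minus MCAM-high on the right. Filled red points passed an adjusted p of 0.05, which 10 did on the left and none on the right.

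Within deleted KIT-negative cells, signal at the members was lower in MCAM-high than in MCAM-medium libraries without any single site passing the test. The median of the 36 sites was 16.3, 18.1 and 17.9 CPM in deleted MCAM-high libraries (mean 17.4 ± 0.959, SD, n = 3), 27.7, 28.8 and 22.9 CPM in those of the MCAM-medium gate (26.5 ± 3.14) and 25.1, 32.2 and 21.5 CPM in those of the KIT-positive gate (26.2 ± 5.44). The 3 MCAM-high values were below those of the 6 other deleted libraries. They were below the 8 control libraries too, but control values of at least 20 CPM chose the members, so nothing is read from that. Summed over the 36 sites, the deleted MCAM-high libraries had 661 to 725 CPM, and no other deleted library was below 822 CPM. The median of the 6451 sites that stayed open did not differ in this way, at 43.8 CPM in deleted MCAM-high and 43.6 CPM in deleted MCAM-medium cells.

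**Figure D5:**
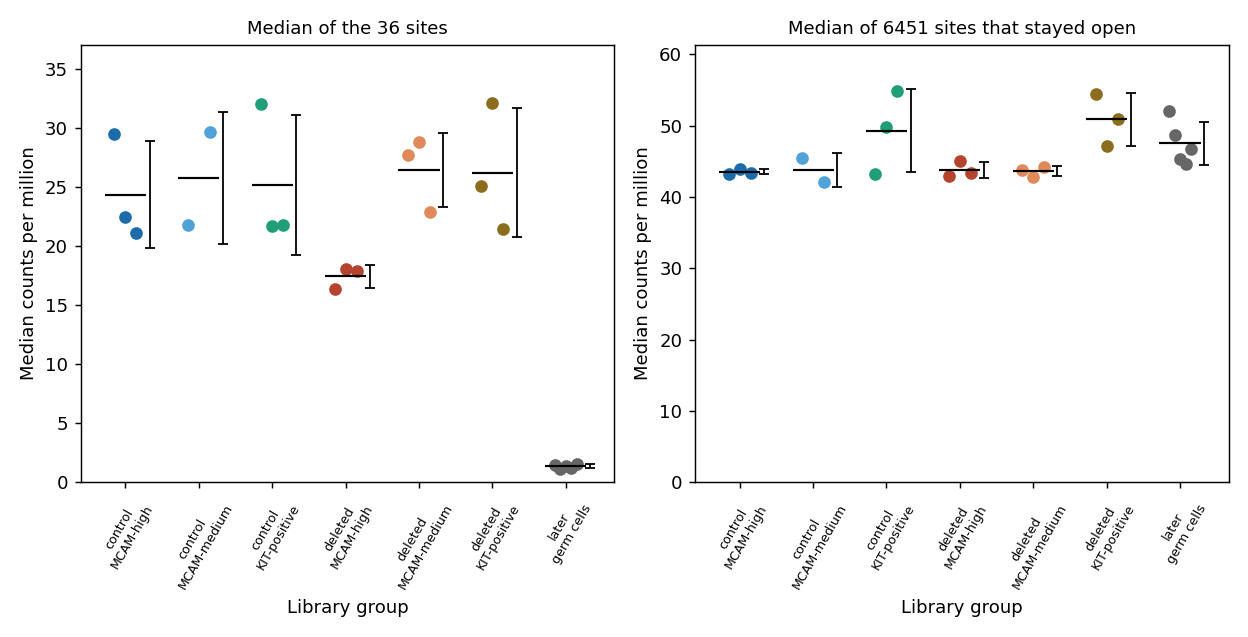
Median CPM (y axis) of the 36 members (left) and of the 6451 sites that stayed open in later cells (right) in each library (points) by group (x axis), with the group mean (bar) and SD (error bar). Deleted MCAM-high libraries lie at 16.3 to 18.1 CPM on the left.

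In the test of MCAM-medium minus MCAM-high in deleted cells, 0 of 36 members were called (edgeR), where 0.014% of all peaks were (0.0105% higher, 0.00349% lower). At an unadjusted p under 0.05 there were 16 members (44.4%) against 9.55% of all peaks, and DESeq2 called 0 members. The median log2 fold change was 0.48 at the members, 0.02 over all peaks and 0.05 at the sites that stayed open. Sites with a later mean of 2 to 4 CPM gave 0.46, with 34.9% under an unadjusted p of 0.05, so the members shared this with sites just above their threshold. Those with a later mean of 4 to 20 CPM gave 0.01 and 9.01%. The lowest adjusted p was that of Socs2 (1.97 ± 0.42, edgeR adjusted p = 0.0605), then Prkcz (1.91 ± 0.45, 0.0836) and the site near Msln (1.70 ± 0.41, 0.0897). Ret had a negative value of -0.94 ± 0.34 (edgeR adjusted p = 0.307). At 15 members the lowest MCAM-medium library was above the highest MCAM-high one, against 9.27% of all peaks tested and 8.11% of the sites that stayed open. With only these 2 groups in the fit 8 members were called, against 1.45% of all peaks, and with no filter on low counts 6, against 0.424%, all higher in MCAM-medium cells.

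In controls the same comparison called 0 members (edgeR and DESeq2) and 0 of all peaks (0%), with 1 member at an unadjusted p under 0.05 (1.63% of all peaks) and a median log2 fold change of 0.14. These libraries were used by the rule, though not their difference. Without control MCAM-high library 1 and MCAM-medium library 1 the median was 0.51, still with 0 called, and the lone MCAM-medium library was then assumed to vary like the other groups. Without MCAM-medium library 2 it was -0.16. The difference between genotypes of this comparison, added after the data were seen, called 0 members (background 0%), with 9 at an unadjusted p under 0.05 (25%, against 4.32% of all peaks) and a median of 0.52, which was 0.15 without the 2 libraries named. Without control MCAM-medium library 2, Actn4 and Prkcz were called (edgeR adjusted p = 0.0471 and 0.0484). That fit left a lone control MCAM-medium library. Its share of all peaks called is not given here, so nothing is read from these calls. A difference between genotypes in this respect was therefore not shown.

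TERT deletion itself changed no member beyond the test. These comparisons share the control libraries that chose the members, and a choice of high control values favours negative differences. Averaged over the 3 populations, 0 of 36 were called by edgeR or DESeq2 (0.124% of all peaks, 0.103% higher and 0.0209% lower), 4 were at an unadjusted p under 0.05 (11.1%, against 5.53% of all peaks), and the median log2 fold change was -0.20 with 30 of 36 below 0. In MCAM-high cells 0 were called (0.0489% of all peaks), 12 were at an unadjusted p under 0.05 (33.3% against 5.86% of all peaks), and the median was -0.50 with 33 below 0. Without control MCAM-high library 1 and MCAM-medium library 1 that median was -0.37. Socs2 had the largest value there, -1.73 ± 0.41 (edgeR adjusted p = 0.123). It was called with no filter on low counts (-1.79, edgeR adjusted p = 0.0188).

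In MCAM-medium cells 0 members were called (0.00873% of all peaks; 2 at an unadjusted p under 0.05, where 4.25% of all peaks were) and the median was -0.01, with 18 members on either side of 0. This median depended on the control pair: it was -0.22 with 30 below 0 without control MCAM-medium library 1, and 0.20 with 24 above 0 without library 2. The value furthest from 0 was that of Ret, -1.19 ± 0.36 (edgeR adjusted p = 0.860), with means of 44.0 ± 11.4 CPM in control (SD, n = 2) and 19.1 ± 7.57 CPM in deleted cells (n = 3). In KIT-positive cells 0 were called (0.00349% of all peaks, 0.00175% in each direction; 0 at an unadjusted p under 0.05, where 3.59% of all peaks were) and the median was 0.08. It was 0.25 with 25 above 0 without control KIT-positive library 1, and -0.07 or -0.10 without deleted KIT-positive library 1 or 2. Leaving out any 1 library gave medians of -0.55 to -0.34 in MCAM-high cells, so their sign held there and did not in the other populations. The same members were used in each of these fits, and their choice favours negative differences, so nothing is read from that sign. Median SEs of single sites were 0.35, 0.38 and 0.34 in the 3 populations, and differences of single sites within such errors were not detectable.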

How the data were processed

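ATAC-seq was measured in 22 libraries. The values the authors deposited are raw whole-number counts, 1 table for all libraries and peaks, used unchanged. Even numbers made up 49.3 to 49.9% of the non-zero counts in later libraries. In spermatogonial libraries the share was 48.8 to 73.9% and varied within groups, so counting may differ between libraries. The cause was not tested. FastQC, Bowtie2, SAMtools and Picard and the builds mm10, hg19 and GRCm38 are named without roles by the submitters' processing notes. Peak calling and merging, the counting tool and any Tn5 offset or duplicate filter are not given in the sources used here. Peak starts were used as deposited, whether counted from 0 or 1. Members and gene lists were chosen with earlier results of these data known. CPM values are scaled to total counts in peaks. Fold changes come from edgeR 4.0.16 under R 4.3.3 (filterByExpr, then TMM factors, then a quasi-likelihood fit of 17 spermatogonial libraries with a mean per group, 11 residual degrees of freedom, Benjamini-Hochberg adjustment over 57289 peaks). The fit was tested on simulated data. DESeq2 1.42.0 was an alternative. Named members were those at gene ends, the 8 others with the highest deleted mean, those in germ cell lists, up to 5 called per comparison, and those next to the threshold. Other members were named after their values were seen. Genes and promoter windows are RefSeq GRCm38.p6. The gene table gives no exons or UTRs, so these were not assigned, and no genome sequence was used. Library numbers were not used to pair samples in the main fit. Of 16 same-number pairs within a genotype, 0 had deviations correlated over 0.1. With groups of 2 or 3 libraries this check is weak.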

Additional observations from a re-analysis of the deposited data

Results flagged for a closer look

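Of 38 groups of 4 to 10 libraries examined for a library far from the others, 2 were marked, near the 1 in 20 that chance gives. Both lay in later germ cells, the only single library group of that size, so nothing is read from where they lay. At the site near Gabrd on chromosome 4 the highest of the 5 later libraries had 3.49 CPM, and at the site near Hibadh on chromosome 6 it had 2.09 CPM, in each case standing apart from the other 4. These values rest on a few reads each.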

How the results depend on the processing

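The number of members depended on the threshold: 3 sites had a later mean under 1 CPM and 231 under 4 CPM, and 24 were found with TMM-scaled library sizes. Leaving out 1 library gave 25 to 52 members, and 17 to 23 of the members met the spermatogonial levels in deleted libraries. With a gene end of 5 kb, 44.4% of members counted as at one, against 93.8% of the sites that stayed open. Calls in deleted KIT-positive minus KIT-negative cells numbered 10. They were 5 with total counts in place of TMM (13.9% of the 36 and 13.9% of all peaks), 5 to 10 with 1 library left out, 8 with the replicate block and 7 with DESeq2, and the members in Socs2 and Trim71 passed in each of these. In deleted MCAM-medium minus MCAM-high cells, 0 calls became 6 with no filter on low counts (0.424% of all peaks) and 8 with the 2 groups fitted alone (1.45%), and stayed 0 to 0 with 1 library left out and with the replicate block. Deleted minus control in MCAM-high cells went from 0 to 1 with no filter, and 0 to 0 with 1 library left out. The difference between genotypes of the MCAM comparison had 0 to 2 calls with 1 library left out. The remaining comparisons had 0 calls in every alternative run. The cause of these shifts was not tested. Where no share of all peaks stands beside a count of calls, nothing about the members is read from that count. For the replicate block within a genotype, library names of 1 number share a prefix across gates, such as Ctrl1 or TERT-CKO1. No label states a shared animal. Between genotypes, libraries share only a number in the labels. For the mean over 3 populations the fit of only the groups compared is the same fit, and for the difference between genotypes it was not run. A single later library allows a level of up to 0.893 to 2.09 CPM at a count of 0. Within 1 such library a closed site and one with a few reads thus cannot be told apart. Over the 5 later libraries together each member had 6 to 23 reads.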

Other observations

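The choice left out the sex chromosomes. Of 183 X-linked sites with the spermatogonial levels of the members, 9 had a later mean under 2 CPM, 50 under 4 CPM and 28 at least 20 CPM. On the autosomes the counts were 36, 231 and 6451 of 9001. The Y chromosome had 0 sites with these levels. No test of this difference was made.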
